A study of Mus musculus with 6 samples.

Results

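BATF, BATF2 and BATF3, and the ETS proteins PU.1 (gene Spi1) and Spi-B (gene Spib), are the factors with which IRF4 binds composite DNA elements. Their 5 genes were taken by name from a table of 14535 genes, and all 5 were found. Spi1 stands there under its older symbol Sfpi1, which RefSeq lists as a synonym of Spi1. RNA-seq counts were compared between type 2 conventional dendritic cells (cDC2s) of the spleen from IRF4-deficient mice (CD11c-Cre Irf4fl/fl, 3 libraries) and from wild-type (WT) mice (3 libraries), all C57BL/6. In the IRF4-deficient mice Cre recombinase, driven by the CD11c (Itgax) promoter, deletes the floxed part of Irf4 in cells that use this promoter. No group carried Cre without the deletion, so effects of Cre and of the missing Irf4 cannot be told apart. The labels give neither age nor sex, and do not say whether each library is from a mouse of its own. The p-values here rest on a spread among libraries that may be only technical.

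IRF4 binds DNA weakly by itself. At ETS-IRF composite elements (EICE) it is recruited by PU.1 or Spi-B, and at AP-1-IRF composite elements (AICE) by a BATF protein paired with a JUN protein. IRF8 binds the same elements with the same partners. In mouse dendritic cells PU.1 is needed for development of the lineage, Batf3 is needed for type 1 conventional dendritic cells (cDC1s), and Spib is typical of plasmacytoid dendritic cells and B cells.

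Of the 5 genes, Batf3 was lower in IRF4-deficient cDC2s, at 26.95 ± 1.495 CPM (TMM-scaled CPM, a count relative to the size of its library) against 66.3 ± 1.62 CPM in WT (mean ± SD, n = 3 each). Batf, Batf2, Spi1 and Spib did not pass the threshold of an adjusted p under 0.05 (edgeR, Benjamini-Hochberg over 11934 tested genes), and their log2 fold changes were 0.40, 0.16, 0.21 and 0.33. So 0 members were called higher and 1 lower, beside 9.87% of all tested genes called higher and 10.5% called lower. Calls in either direction covered 20.4% of tested genes, so 1 call among 5 genes is close to the background share. Values of 3 members did not overlap between the groups, as was the case for 35.6% of all tested genes.

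**Figure D1:**
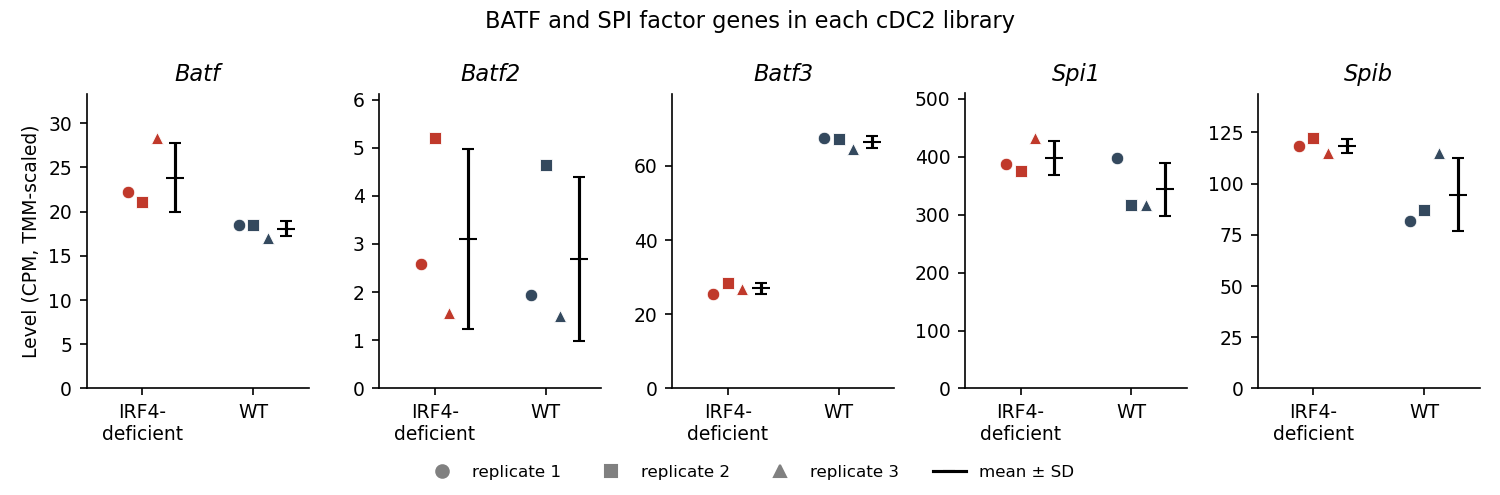
Level of each gene (CPM, TMM-scaled, each panel starting at 0) in the 3 IRF4-deficient and 3 WT libraries, with the mean ± SD beside them. Batf3 lies between 25.6 and 28.5 CPM in IRF4-deficient libraries and between 64.5 and 67.3 CPM in WT libraries, while the groups of Batf2 and Spi1 overlap.

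Irf4 itself was at 90.8, 65.3 and 83.95 CPM in IRF4-deficient libraries and 291.8, 295.8 and 345.02 CPM in WT libraries. Values given per library run in the order of replicates 1, 2 and 3. Library totals ran from 7421605 to 11459920 counts. Of 12 genes taken to define cDC2s, 2 were called higher, Itgam (log2 fold change 1.60) and Itgax, and 5 lower. That was 58.3% of the list, beside 20.4% of all tested genes. Itgax stood at 1672 to 1757 CPM in IRF4-deficient libraries and 1353 to 1427 CPM in WT libraries. Sirpa, which was not called, stood at 951 to 1031 CPM in IRF4-deficient libraries and 902 to 916 CPM in WT libraries. Lower were Cd4, at 131.3 ± 21.9 CPM in IRF4-deficient cells against 554.8 ± 20.6 CPM in WT cells, Cd209a, Zbtb46, Flt3 and H2-Aa. Clec10a and Mgl2 were under 6 CPM in every library. Some libraries stood apart. The 12 genes of a red pulp macrophage list summed to 1783, 2508 and 3294 CPM in IRF4-deficient libraries 1 to 3, against 1010 to 1349 CPM in WT, and IRF4-deficient replicate 3 was the one library far from the rest along the second principal component, which held 13.1% of variance. WT replicate 3 had low immediate early genes, where Fos stood at 24.4 CPM, while the other WT libraries had 171.9 and 125.1 CPM. For the members and some other genes, values without these libraries are given too. In bulk samples, fewer cells of a type and less RNA per cell cannot be told apart.

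BATF proteins are small basic leucine zipper factors, and BATF and BATF3 consist of little more than the zipper and the adjoining basic region, so they depend on their partners to activate genes. Batf3 (GRCm38 chromosome 1, 191097847 to 191108945, plus strand) had 278, 231 and 240 counts in the 3 IRF4-deficient libraries and 487, 739 and 472 counts in the 3 WT libraries. After scaling this was 25.6, 28.5 and 26.7 CPM in IRF4-deficient libraries against 67.3, 67.2 and 64.5 CPM in WT libraries. All IRF4-deficient values lay far below all WT values, with little spread within either group. The log2 fold change was -1.30 (SE 0.13, 95% interval -1.57 to -1.03; edgeR adjusted p = 5.17e-07), a 2.46-fold lower level. It ran from -1.34 to -1.26 when any 1 library was left out. Without IRF4-deficient library 3 and WT library 3 it was -1.32 (adjusted p = 1.47e-06), and with the red pulp list as a covariate -1.41 (adjusted p = 0.00186). The level of that list did not overlap between the groups. Fits with this covariate, here and below, therefore cannot cleanly separate it from genotype.

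Most markers of cDC1s, the cells in which Batf3 is best known, were higher. Of 10 tested cDC1 markers 6 were called higher and 2 lower, 80% of the list beside 20.4% of all tested genes. The median log2 fold change of the list was 0.61, against 0.0025 over all tested genes, and 3 of the 10 were below 0. Clec9a, a receptor for dead cells, stood at 61.6, 94.1 and 89.9 CPM in IRF4-deficient libraries and 40.2 to 55.6 CPM in WT libraries. Xcr1, a chemokine receptor, stood at 20.8, 28.9 and 35.0 CPM in IRF4-deficient libraries and 10.8 to 22.5 CPM in WT libraries. The Xcr1 groups overlapped. The summed level of the list was 1223 to 1459 CPM in IRF4-deficient libraries and 1943 to 2055 CPM in WT libraries, and Wdfy4, one of the members called lower, gives most of that sum. Without Wdfy4, left out after its level was seen, the list summed to 503 to 682 CPM in IRF4-deficient libraries and 409 to 446 CPM in WT libraries. The part of cDC1s in the Batf3 value was not tested.

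The window of 250 bases upstream of the RefSeq start of Batf3 is shown because Batf3 was the member that passed the test. GENCODE starts the gene earlier, at 191097847, so by the coordinates given above this window lies within the gene. Capitals mark the only match to a searched motif, a PU box (GAGGAA, the purine-rich core bound by PU.1), whose first base is at -153 from the RefSeq start.
Batf3 upstream (RefSeq, GRCm38.p6, chr1:191098164-191098413, plus strand): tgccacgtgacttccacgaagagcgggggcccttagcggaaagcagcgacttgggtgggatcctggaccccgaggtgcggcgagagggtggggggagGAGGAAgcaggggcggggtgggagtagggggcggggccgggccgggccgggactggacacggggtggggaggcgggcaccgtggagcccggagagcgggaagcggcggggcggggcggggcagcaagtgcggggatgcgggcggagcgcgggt
Other motifs were searched on both strands of the 300-base windows, which reach 50 bases past the start. They were the EICE (GGAA, any 2 bases, GAAA), the AICE without a gap (GAAA joined to TGANTCA), the AICE with a gap (TTTC, any 4 bases, TGANTCA), the interferon response element ISRE (GAAA, any 2 bases, GAAA) and the AP-1 site (TGANTCA). None of these letters stood in the windows of Batf3, Spib and Batf, and the windows of Spib and Batf held no PU box either. Spi1 and Batf2 had no RefSeq window in the source used, so they were not searched. A PU box was present in 28.3% of all 32851 windows of that table. EICE letters were present in 2.72% of these windows, AICE letters without a gap in 41 of them and with the gap in 39, ISRE letters in 3.44% and AP-1 letters in 7.81%. The AP-1 letters also lie within both AICE forms.

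Batf (chromosome 12, 85686669 to 85709087, plus strand), which in T and B cells is a main partner of IRF4, had 22.2, 21.1 and 28.3 CPM in the 3 IRF4-deficient libraries against 18.5, 18.5 and 17.1 CPM in the 3 WT libraries. The groups did not overlap, and IRF4-deficient replicate 3 was the highest. The log2 fold change of 0.40 (SE 0.19, 95% interval 0.013 to 0.79) did not pass (edgeR adjusted p = 0.142), and it was 0.26 without IRF4-deficient replicate 3. With the red pulp list as a covariate it was 0.08 (SE 0.35).

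Batf2 (chromosome 19, 6140983 to 6172476, plus strand), known in mouse as an interferon-induced factor of macrophages, was sparse. It had 28, 42 and 14 counts in the 3 IRF4-deficient libraries and 14, 51 and 11 counts in the 3 WT libraries. In each group replicate 2 was the highest, and the groups overlapped over most of their range. The log2 fold change was 0.16 (SE 0.54, 95% interval -0.97 to 1.28; edgeR adjusted p = 0.881), so a difference of 2-fold either way was hardly detectable at this depth. The gene overlaps Arl2 on the opposite strand and, as annotated, a pseudogene and an rRNA gene, and since the strand setting of the counting is not given in the sources used here, reads of the genes cannot be told apart where they overlap. The members shared almost no sequence with other genes. Of the 50-base words in their annotated transcripts, 0 of Batf, Batf3 and Spi1, 0.111% of Batf2 and 0.314% of Spib occurred in transcripts of another gene. For Batf2 that gene was Arl2 only.

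Within the BATF family Batf3 took a smaller share in every IRF4-deficient library than in any WT library. Per kilobase of exon, Batf stood at 16.97 ± 2.75 and Batf3 at 16.9 ± 0.936 CPM per kb in IRF4-deficient cDC2s, against 12.8 ± 0.602 and 41.5 ± 1.01 CPM per kb in WT (SD, n = 3 each). Batf3 made up 48.8%, 51.1% and 44.7% of the summed BATF family level per kb in IRF4-deficient libraries 1 to 3, against 75.1%, 73.7% and 76.0% in the 3 WT libraries. Batf thus had 0.985, 0.841 and 1.20 counts per kb for each of Batf3 in IRF4-deficient libraries and 0.313, 0.314 and 0.301 in WT libraries. The log2 difference of that ratio was 1.69, and groups of 3 against 3 cannot give less than the exact two-sided permutation p of 0.1 found here.

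PU.1 is the ETS factor on which myeloid and dendritic cell genes depend most widely. Spi1 (chromosome 2, 91082390 to 91115756, plus strand) was the most abundant member, with 387.5, 375.5 and 431.5 CPM in the 3 IRF4-deficient libraries and 397.2, 316.9 and 316.6 CPM in the 3 WT libraries. WT replicate 1 lay within the range of the IRF4-deficient libraries, and WT replicates 2 and 3 lay below it. Its log2 fold change was 0.21 (SE 0.10, 95% interval 0.01 to 0.42; edgeR adjusted p = 0.135). Leaving out WT replicate 1 gave 0.33 with an adjusted p of 0.02, while leaving out IRF4-deficient replicate 3 gave 0.15 and leaving out both libraries 3 gave 0.10. With the red pulp list as a covariate the value was 0.05 (SE 0.18).

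Spib (chromosome 7, 44525993 to 44532071, minus strand) had 118.4, 122.0 and 115.1 CPM in the 3 IRF4-deficient libraries and 81.9, 87.1 and 114.9 CPM in the 3 WT libraries. All IRF4-deficient values lay above all WT values, but WT replicate 3 came within 1 CPM of the lowest IRF4-deficient library. The log2 fold change was 0.33 (SE 0.12, 95% interval 0.07 to 0.58; edgeR adjusted p = 0.0668), and limma-voom gave an adjusted p of 0.046. Without WT replicate 3 it was 0.48 (adjusted p = 0.00852), and without IRF4-deficient library 3 and WT library 3 it was 0.50 (adjusted p = 0.00396). Without WT replicate 1 it was 0.23 (adjusted p = 0.253) and without WT replicate 2 it was 0.27 (adjusted p = 0.251). The red pulp covariate gave 0.54 (SE 0.23, adjusted p = 0.214).

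Spib is used by plasmacytoid dendritic cells and B cells. Of 9 tested plasmacytoid dendritic cell markers 4 were called higher and 1 lower, 55.6% of the list beside 20.4% of all tested genes. The median log2 fold change of the markers was 0.78, and 1 of the 9 was below 0. The list summed to 552 to 660 CPM in IRF4-deficient libraries and 398 to 441 CPM in WT libraries. Runx2, a transcription factor of that list, is its most abundant gene, at 367.4 CPM on average in IRF4-deficient cells against 180.2 CPM in WT cells, and Ccr9 was the marker called lower. Without Runx2 the groups overlapped, at 213 to 241 CPM in IRF4-deficient libraries and 214 to 252 CPM in WT libraries. Siglech, which defines those cells in mouse, was low throughout, at 6.35, 8.77 and 7.46 CPM in IRF4-deficient libraries and 3.46, 1.27 and 4.78 CPM in WT libraries. Of 9 tested B cell markers 1 was called higher and 3 lower, 44.4% of the list beside 20.4% of all tested genes. The B cell list summed to 370.4 to 431.1 CPM in IRF4-deficient libraries and 441.8 to 519.9 CPM in WT libraries. Cd22 gives most of that sum, and without it the B cell groups overlapped too, at 107 to 141 CPM in IRF4-deficient libraries and 83.1 to 153 CPM in WT libraries. Both genes were left out after their levels were seen. The part of either cell type in the Spib value was not tested.

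**Figure D2:**
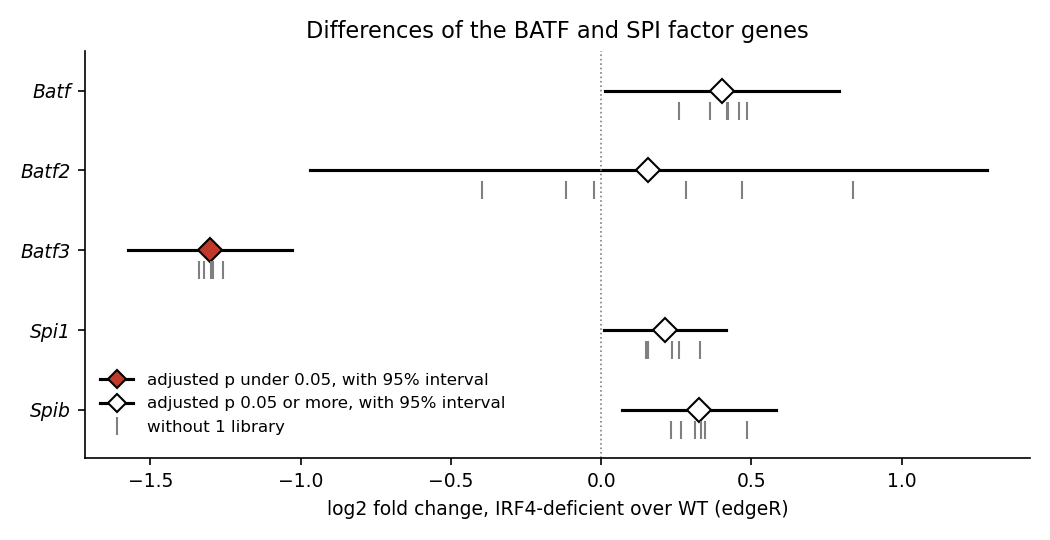
Log2 fold change of each gene, IRF4-deficient over WT, with its 95% interval from edgeR; filled diamonds passed an adjusted p under 0.05 and grey ticks are the values without 1 library. Batf3 at -1.30 stands alone, and the ticks of Batf2 lie on both sides of 0.

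In IRF4-deficient cDC2s the order of levels per kb was Spi1 at 147.7 ± 10.9, Spib at 41.3 ± 1.20, Batf and Batf3 at 16.97 and 16.9, and Batf2 at 1.23 ± 0.743 CPM per kb. Batf and Batf3 did not differ beyond their spread. In WT cDC2s Spi1 at 127.5 ± 17.2 was followed by Batf3, at 40.4 to 42.2, and Spib, at 28.5 to 40.1 CPM per kb, then Batf and Batf2. Batf3 and Spib thus stood in opposite order in the groups, and in WT the highest Spib library came close to the lowest Batf3 library.

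How many partner transcripts stand beside each IRF transcript depends on Irf4 and Irf8 as well, since both IRFs use these partners. Spi1 had 7.76, 10.5 and 9.35 counts per kb for each of Irf4 in IRF4-deficient libraries 1 to 3, against 2.48, 1.95 and 1.67 in the 3 WT libraries. Every IRF4-deficient library was above every WT library, by 4.55-fold on the mean log scale. Spib per Irf4 differed by 4.95-fold, at 2.23 to 3.20 in IRF4-deficient and 0.480 to 0.569 in WT libraries. Batf3 per Irf4 differed least, by 1.59-fold, with 0.865, 1.34 and 0.977 in IRF4-deficient against 0.709, 0.697 and 0.574 in WT libraries, as Batf3 and Irf4 were both lower. Each of these ratios had an exact two-sided permutation p of 0.1, the smallest that 3 against 3 libraries allow. Irf4, the deleted gene, was itself 3.88-fold lower, while Spi1 was 1.16-fold and Spib 1.25-fold higher, neither of them called. The rise of Spi1 and Spib per Irf4 thus follows largely from the lower Irf4 counts, and its p is no separate result about the partners. The counts do not show which exons the Irf4 reads cover, so these ratios are of transcripts and not of functional IRF4.

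Irf8, the IRF central to cDC1s, ran the other way, at 127.0 ± 17.2 CPM in IRF4-deficient cells against 47.7 ± 7.44 CPM in WT cells. With Irf4 lower as well, Irf8 had 0.822, 1.49 and 1.11 counts per kb for each of Irf4 in IRF4-deficient libraries 1 to 3. In the 3 WT libraries it had 0.130, 0.0933 and 0.0982. With the longest transcript as length, Irf8 per Irf4 was 1.62, 2.94 and 2.19 in IRF4-deficient and 0.256, 0.184 and 0.194 in WT libraries. Whether Irf8 stood above Irf4 in IRF4-deficient library 1 thus depends on the length used. Batf3 per Irf8 was 1.05, 0.904 and 0.881 in IRF4-deficient against 5.46, 7.47 and 5.84 in WT libraries, a 6.57-fold lower ratio. By the longest transcript it was 0.744, 0.639 and 0.623 in IRF4-deficient libraries, with the same fold. Spi1 per Irf8 was 2.29-fold lower, at 7.04 to 9.44 in IRF4-deficient and 16.997 to 20.9 in WT libraries. Set against the sum of Irf4 and Irf8, Spi1 stood at 4.26, 4.21 and 4.43 in IRF4-deficient and 2.19, 1.78 and 1.52 in WT libraries, and Batf3 at 0.475, 0.540 and 0.463 in IRF4-deficient and 0.627, 0.638 and 0.522 in WT libraries. The groups overlap for Batf3 on this scale (exact permutation p = 0.2). With the longest transcript as length the Batf3 groups did not overlap, at 0.428 to 0.477 in IRF4-deficient and 0.672 to 0.823 in WT libraries, and the fold for Spi1 went to 1.72 in place of 2.37, since annotated Irf8 exons cover 7055 bases and its longest transcript 3469. Irf8 also overlaps a second gene model on the same strand.

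**Figure D3:**
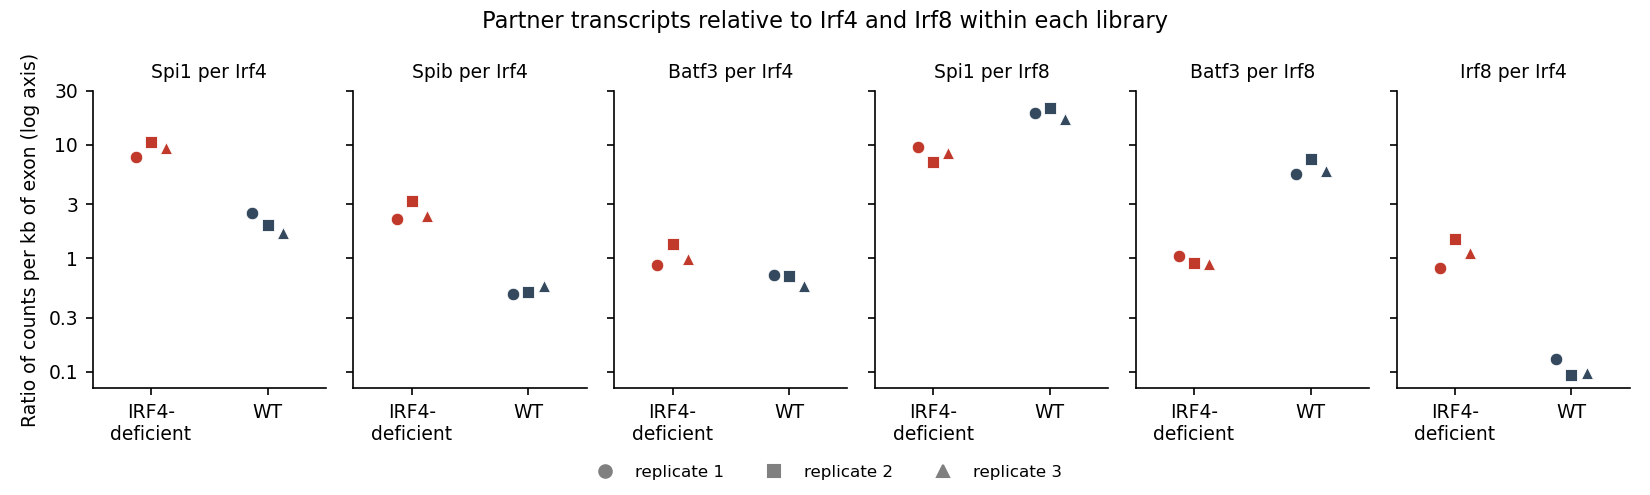
Ratios of counts per kb of exon within each library (log axis), for partner genes over Irf4 or Irf8 and for Irf8 over Irf4. Partner to Irf4 ratios are higher and partner to Irf8 ratios lower in all 3 IRF4-deficient libraries than in all 3 WT libraries. Irf4 is the deleted gene and was itself lower in the IRF4-deficient libraries.

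BATF proteins bind DNA as a pair with JUN proteins, and FOS proteins compete for the same partners. Of 8 tested AP-1 genes 0 were called higher and 1 lower, with a median log2 fold change of 0.03. Calls covered 12.5% of this list, beside 20.4% of all tested genes. Atf3, a stress-induced member that can pair with JUN, fell to 4.91 ± 1.63 CPM in IRF4-deficient cDC2s against 17.5 ± 4.86 CPM in WT (log2 fold change -1.85, SE 0.29; edgeR adjusted p = 0.000118). Jun stood at 303.2, 317.9 and 282.7 CPM in the 3 IRF4-deficient libraries and at 399.8, 342.2 and 101.6 CPM in the 3 WT libraries. WT replicate 3 was far below all other libraries, and without it Jun was called lower with a log2 fold change of -0.30 (adjusted p = 0.0472). Without IRF4-deficient library 3 and WT library 3, Jun was at -0.26 and not called (edgeR adjusted p = 0.065). Junb, at 95.04 to 105.8 CPM in IRF4-deficient libraries and 69.0 to 135.4 CPM in WT libraries, was not called.

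Some other ETS genes had larger fold changes than Spi1 and Spib. Of 17 tested members 2 were called higher and 4 lower, with a median log2 fold change of -0.08. This was 35.3% of the list, beside 20.4% of all tested genes. Ehf, an ETS factor best known from epithelia, stood at 28.0, 31.5 and 29.2 CPM in IRF4-deficient libraries and 129.2, 127.9 and 124.7 CPM in WT libraries. Etv3, known as a repressor in macrophages and dendritic cells, stood at 90.3, 93.7 and 79.1 CPM in IRF4-deficient libraries and 308.1, 424.3 and 400.2 CPM in WT libraries. Both fell, at log2 -2.11 (SE 0.12 each; edgeR adjusted p = 2.51e-10 and 7.10e-10), and all IRF4-deficient values lay far below every WT value. Elk3 rose to 223.8 ± 21.5 CPM against 138.0 ± 16.1 CPM in WT (adjusted p = 6.73e-05). Ets1 had a log2 fold change of 0.60 (SE 0.15) and Elf1 of -0.34 (SE 0.08), and both were called. With the red pulp covariate Ets1 stayed as large at 0.62 but was not called (adjusted p = 0.258), while Elf1 was at -0.17 (adjusted p = 0.665). Elk4 (-0.41, SE 0.11) was called, but not with that covariate (-0.32, adjusted p = 0.528) nor without WT replicate 2 (-0.37, adjusted p = 0.079) or WT replicate 3 (-0.34, adjusted p = 0.0876). Spic, a further SPI gene and a red pulp macrophage factor, stood at 32.9, 58.5 and 92.7 CPM in the 3 IRF4-deficient libraries and 32.5 to 45.5 CPM in WT, and was not called (adjusted p = 0.282).

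**Figure D4:**
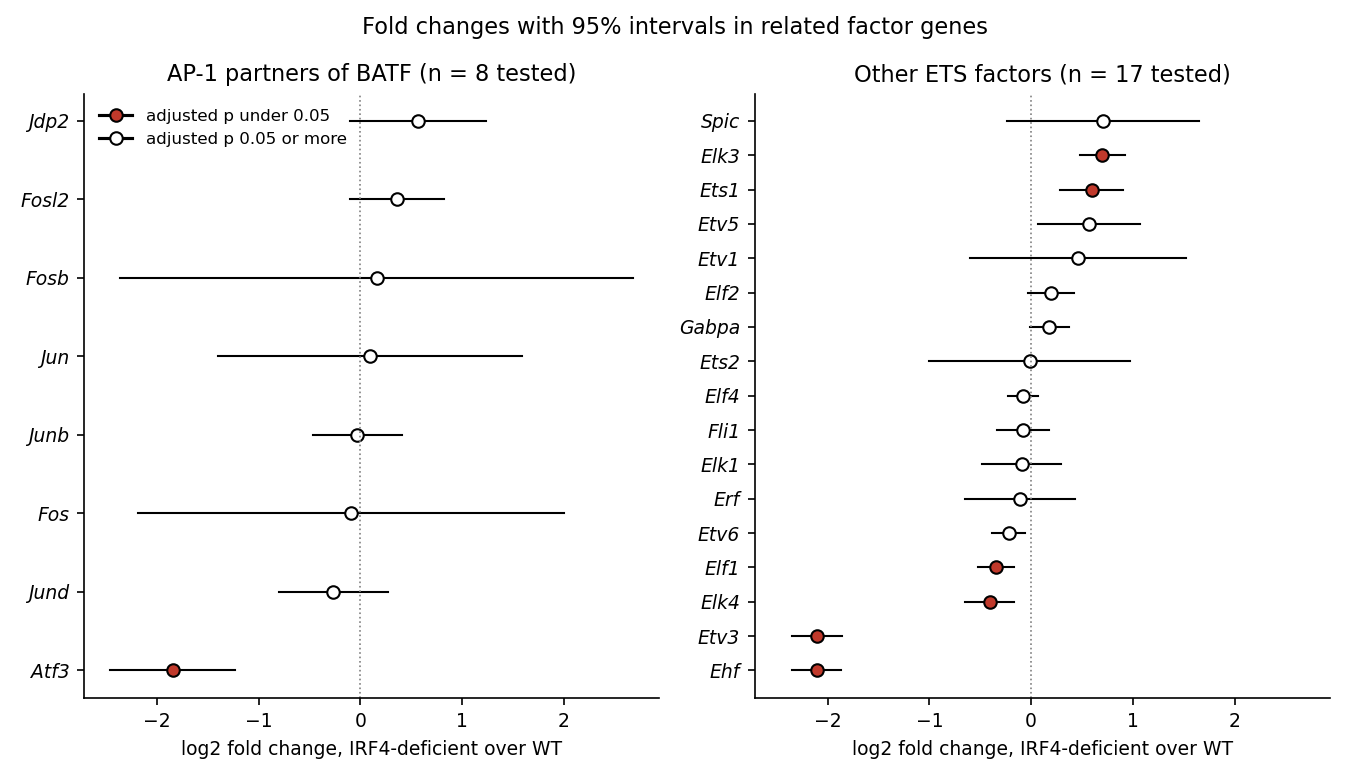
Log2 fold changes, IRF4-deficient over WT, with 95% intervals for the 8 tested AP-1 genes and 17 tested other ETS genes; filled circles passed an adjusted p under 0.05. Atf3, Ehf and Etv3 lie near -2, and the intervals of Fos, Fosb and Jun are wide, with WT replicate 3 low in these genes.

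Among 9 other factors reported to bind with IRF4, 3 were called higher and 1 lower, 44.4% of the list beside 20.4% of all tested genes. Ikzf1, the gene of the zinc finger factor Ikaros, rose to 1212 ± 15.9 CPM against 836.4 ± 31.5 CPM in WT, and Stat3 rose to 434.1 ± 17.9 CPM against 324.6 ± 20.01 CPM in WT. Nfatc3 (log2 fold change 0.24, adjusted p = 0.0403) kept a similar size of 0.21 to 0.26 but was not called in 5 of the 6 fits without 1 library, all but that without WT replicate 1. Nor was it called without robust shrinkage (adjusted p = 0.0513), with the replicate block (0.0644) or with the red pulp covariate (0.442). Bcl6, a repressor used by conventional dendritic cells, had a log2 fold change of -0.56 (SE 0.14), and of -0.49 with an adjusted p of 0.0702 without IRF4-deficient replicate 2. Of the 9 IRF genes 1 was called higher (Irf8) and 4 lower, namely the deleted Irf4, Irf1 (-0.56), Irf5 (-0.47) and Irf9 (-0.31). These were 55.6% of a list that includes the deleted gene, beside 20.4% of all tested genes. Irf5 was called under all alternatives. Irf1 was at -0.06 with the red pulp covariate, and at -0.41 (edgeR adjusted p = 0.0705) without IRF4-deficient library 3 and WT library 3. Irf9 was not called with that covariate or in 4 of the 6 fits without 1 library. Of 10 tested factors known to act upstream of or beside these members 2 were called higher (Klf4 and Zeb2) and 1 lower (Id2). They were 30% of the list, beside 20.4% of all tested genes. Runx1 and Tcf4 were not called, though Runx1 was called higher without IRF4-deficient replicate 1 (0.36, edgeR adjusted p = 0.0148). With the red pulp covariate 0 of the 10 were called, and Klf4 was at 0.81, Zeb2 at 0.02 and Id2 at -0.13.

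Genes known to need PU.1 were called in both directions, 9 higher and 3 lower of 20, with a median log2 fold change of 0.31. This was 60% of the list, beside 20.4% of all tested genes, and no test of the list as a set was run. Itgb2, the beta chain of CD11b and CD11c integrins, rose to 1125 ± 28.1 CPM against 755.5 ± 25.8 CPM in WT (log2 fold change 0.57, SE 0.07), and its partner chain Itgam rose with a log2 fold change of 1.60 (SE 0.08). Csf1r (1.11, SE 0.13) and Lyz2 (1.16, SE 0.10), both also expressed by macrophages and monocytes, were called higher too. Csf2rb (-0.95, SE 0.09) and Flt3 (-0.72, SE 0.08), cytokine receptor genes, and Ncf1 (-0.35, SE 0.09), a subunit gene of the phagocyte oxidase, were called lower. A monocyte marker list summed to 2219 to 2886 CPM in IRF4-deficient libraries and 856 to 1232 CPM in WT libraries, with 5 of 10 markers called higher. These calls were 50% of that list, beside 20.4% of all tested genes, and Csf1r and Lyz2 are on the list too. The part of monocytes in these values was not tested. When the red pulp list entered the model, the calls were 3 higher and 2 lower.

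Of 10 genes described in the literature to hold a PU.1-IRF element, 0 were called higher and 3 lower, 30% of the list beside 20.4% of all tested genes. Il1b stood at 102.7, 113.7 and 97.2 CPM in IRF4-deficient libraries and 172.9, 175.2 and 173.5 CPM in WT libraries (log2 fold change -0.73, SE 0.10; edgeR adjusted p = 1.57e-05). Ciita, the master regulator of MHC class II genes (-0.31, SE 0.07), and Ms4a1, the CD20 gene of B cells (-1.05, SE 0.20), were the others, and Ms4a1 is on the B cell list as well. Cybb, at 796.0 ± 24.9 CPM in IRF4-deficient cells and 779.8 ± 56.4 CPM in WT cells, was not called. Of 8 genes with a BATF-IRF element described in lymphocytes, 2 were tested. Of these 1 was called, 50% beside 20.4% of all tested genes. Icos was called lower (-0.47, SE 0.15; adjusted p = 0.0345), but not without IRF4-deficient replicate 2 (-0.31, adjusted p = 0.159), WT replicate 2 (-0.46, adjusted p = 0.0986) or WT replicate 3 (-0.37, adjusted p = 0.161), nor with the red pulp covariate (-0.31, adjusted p = 0.666), and Prdm1 was not called.

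Composite elements were also counted in the RefSeq promoter windows of the tested genes, with no test of the shares. EICE letters stood in 4.24% of 1273 windows of genes called lower, 2.0% of 1200 windows of genes called higher and 2.45% of 11911 windows of all tested genes with an entry (9395 genes). For the ISRE the shares were 5.34%, 3.75% and 3.24%, and for AP-1 letters 6.99%, 5.75% and 4.98%. AICE letters without a gap were rare, in 3 windows of genes called lower, 2 of genes called higher and 8 of all tested genes. A match in such a window does not show that a factor binds there.

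**Figure D5:**
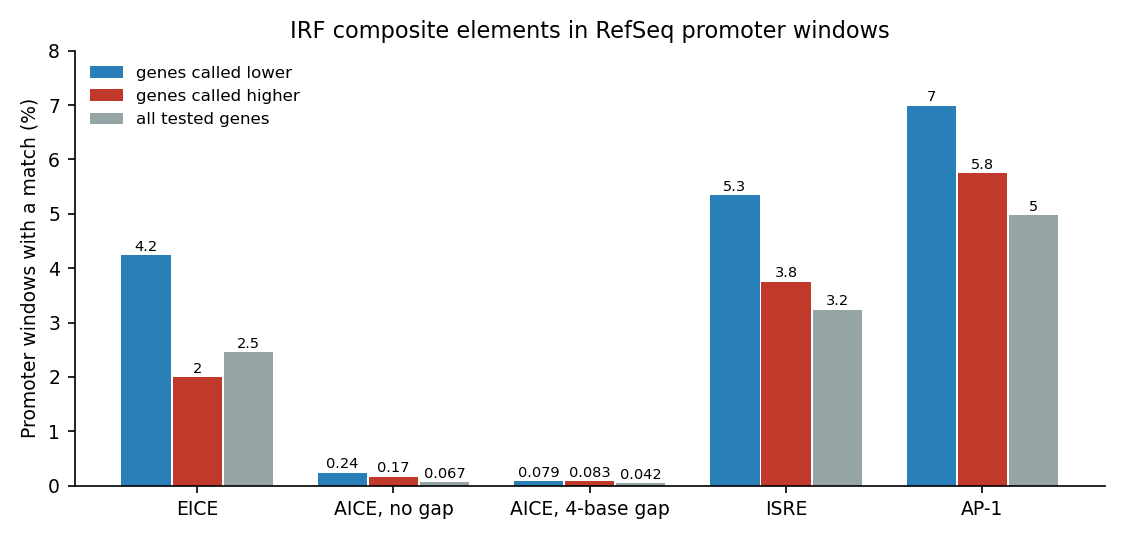
Share of 300-base RefSeq promoter windows (y axis, percent) that hold each motif on either strand, for genes called lower, called higher and all tested genes. EICE letters are in 4.24%, 2.0% and 2.45% of windows.

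Shown here are gapless AICE matches among called genes with a mean of at least 50 CPM. Beside them are the EICE matches of those called genes with the smallest p in each direction, 2 per direction. An autosome was left out of this search for sites, so its genes could not appear. The sites were chosen after the values were seen. Each is read 5′ to 3′ on the strand of the motif with 6 bases on either side, and capitals mark the element.
Zbtb46 AICE (chr2:181424433-181424455, plus strand): tgctgtGAAATGAGTCAaggtaa
Mgat4a AICE (chr1:37536533-37536555, minus strand): ctataaGAAATGAATCAttttaa
Mndal AICE (chr1:173880003-173880025, plus strand): gaaagaGAAATGACTCAaaaaag
Prdx1 AICE (chr4:116685352-116685374, plus strand): aacgagGAAATGACTCAaagggc
Klri1 EICE (chr6:129717271-129717292, plus strand): aatggaGGAAATGAAAgtacaa
Cd209a EICE (chr8:3748978-3748999, plus strand): tacttaGGAAGAGAAAttgaga
Spn EICE (chr7:127138048-127138069, minus strand): agggagGGAAAGGAAAcggttc
Slc7a1 EICE (chr5:148392918-148392939, plus strand): ttttcaGGAAAGGAAAtgtttg
Positions are on GRCm38.p6. The N in the AP-1 letters admits any base, although AP-1 proteins prefer C or G there.

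Among called genes with a mean of at least 50 CPM, 26 lower and 13 higher genes held EICE letters in a window, and 2 lower and 2 higher genes held gapless AICE letters. These counts leave out the genes of the autosome that was not searched for sites. Zbtb46, a factor that marks conventional dendritic cells, stood at 42.7, 46.2 and 38.0 CPM in IRF4-deficient libraries and 73.3, 86.4 and 83.2 CPM in WT libraries, and Mndal, a DNA-sensing family gene, at 566.7, 502.0 and 711.4 CPM in IRF4-deficient libraries and 200.1, 205.4 and 173.5 CPM in WT libraries. Cd209a, a lectin of cDC2s, fell to 128.6 ± 21.3 CPM against 317.8 ± 36.5 CPM in WT (log2 fold change -1.31, SE 0.12). Klri1 fell to 32.1 ± 3.91 CPM against 279.3 ± 15.9 CPM in WT, with the limit that reads may be shared within its receptor family. Spn, the CD43 gene, rose to 220.6 ± 13.7 CPM against 60.9 ± 6.50 CPM in WT, and Slc7a1, an amino acid transporter gene, rose with a log2 fold change of 1.01.

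The genes whose levels ran most like those of each member were found by Pearson's r of log2(CPM + 1) over the 6 libraries, among genes with a mean of at least 20 CPM. For Batf3 they were Ehf, Il10ra and Klri2 (r = 0.9996, 0.999 and 0.997). Each of these was called lower, as Batf3 was (log2 fold change -2.11, -1.08 and -1.47). An r over both groups cannot separate that shared difference from variation between libraries of a group. For Batf they were Sla, Nfkbia and Mta3 (0.997, 0.993 and 0.992), for Spi1 Map3k11, Hccs and Prdx1 (0.997, 0.992 and 0.989) and for Spib Mtap, Calhm2 and Znhit6 (0.987, 0.986 and 0.983). Over 6 libraries such values are a description only.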

How the data were processed

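RNA-seq was done on 6 cDC2 libraries. The authors deposited unnormalized whole-number counts, 1 row a gene symbol. STAR, HTSeq, DESeq2 and the build mm10 are named, per the submitters' processing notes; their versions, the annotation, the strand setting and any row filter are not given in sources used here. WT columns were matched to samples through the labels' source names, and replicates carry the numbers of the titles. No value column was left unused.

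Of 14535 rows, 13064 matched GENCODE M21 (GRCm38, the assembly of mm10) by symbol and 1248 through an older symbol, as Spi1 did through Sfpi1. Counts were filtered with filterByExpr (11934 genes kept), TMM-scaled and tested with edgeR 4.0.16 in R 4.3.3 (quasi-likelihood test, robust shrinkage, prior count 0.125), with p-values adjusted over all tested genes. The SE comes from the F statistic. Levels between genes were compared per kb of exon. Ratios were tested by exact permutation over libraries.

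Members, lists and tests were chosen with earlier results of these data known. Companion genes could be named if called (at most 4 per direction in lists with over 5 calls, by p) or at a mean of at least 50 CPM. Markers of other cell types and the 3 most alike genes of each member could be named too (Spic as a red pulp marker); genes of promoter sites were picked after seeing values.

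Libraries of 1 group varied more than counting noise (chi-square per degree of freedom 7.66 to 15.9). The fit was tested on simulated counts. Alternatives were DESeq2 1.42.0, limma-voom (limma 3.58.1), other scalings and filters, a replicate block, a fit with no robust shrinkage, one with Rn45s and Malat1 removed, the mean log2 CPM of 12 red pulp macrophage genes as a covariate, and leaving out each library. Leaving out IRF4-deficient library 3 and WT library 3 together was added after seeing the data.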

Additional observations from a re-analysis of the deposited data

How the results depend on the processing

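Batf3 remained called lower under all 17 alternatives tried, with log2 fold changes from -1.41 to -1.26. Batf and Batf2 were called in none of the alternatives that could be run for them; the filter of 5 CPM removed Batf2. Batf2 changed sign with the red pulp covariate (-0.27) and ranged from -0.40 to 0.84 without 1 library. Spi1 ranged from 0.15 to 0.33 and Spib from 0.23 to 0.48 without 1 library, and each was called in 1 of these fits. Spib was also called by limma-voom (0.35) and without both libraries 3 (0.50). Without 1 library, the difference in the Spib share of Spi1 and Spib ranged from -1.06 to 3.54 percentage points. The cause of these changes was not tested.

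With the red pulp covariate 743 genes were called in place of 2429, and the index did not overlap between the groups (6.50 to 7.35 in IRF4-deficient, 5.84 to 6.18 in WT), so covariate and genotype are largely confounded. The calls were then 3 of the ETS list, 3 of the IRF list, 0 of the upstream factors, 5 of the PU.1 targets, 1 of the genes with a PU.1-IRF element and 0 with a BATF-IRF element. Without 1 library, calls ranged from 1 to 2 (AP-1), 2 to 4 (other IRF4 partners), 3 to 5 (PU.1-IRF element) and 0 to 1 (BATF-IRF element, 0 also without both libraries 3).

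No label ties equal replicate numbers to 1 animal or day, and deviations of libraries with equal title numbers correlated at -0.00965, 0.0525 and -0.0147. The WT columns carry other numbers than the WT titles, so this pairing and the replicate block rest on the title numbers alone. With the replicate number as a block Batf3 was at -1.30 and 2267 genes were called. Batf2, with 11 to 51 counts per library, is the member that depth limits.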
